A study of Mus musculus with 16 samples.

Results

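The 91 genes described here encode the nuclear share of the mitochondrial respiratory chain and ATP synthase, measured in the livers of mice that had received oxaliplatin. They are the rows of a table of 40840 gene symbols that start with Ndufa, Ndufb, Ndufc, Ndufs, Ndufv, Uqcr, Cox4i, Cox5, Cox6, Cox7, Cox8 or Atp5, or that are Sdha, Sdhb, Sdhc, Sdhd or Cyc1. Symbols with -ps, which mark pseudogenes, and the Ndufaf assembly factors were left out. By complex, 41 belong to complex I, 4 to complex II, 9 to complex III, 20 to complex IV and 17 to complex V, with Ndufa4 and Ndufa4l2 placed in complex IV. Of the 91, 82 passed the filter on low counts and were tested, 38, 4, 9, 14 and 17 by complex. The 9 that did not pass were Cox4i2, Cox6a2, Cox7a1, Cox7b2, Cox8b, Cox8c, Ndufa11b, Ndufb4b and Ndufb4c, with 0 to 118 reads each over all libraries together.

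Complex I takes electrons from NADH and complex II takes them from succinate, and both pass them to ubiquinone. Complex III hands them on through cytochrome c to complex IV, which reduces oxygen, and complex V, the ATP synthase, uses the proton gradient that complexes I, III and IV build. Most subunits come from nuclear genes and are imported, while a small core of the chain is encoded by mitochondrial DNA. Of those 13 mitochondrial genes 0 are among the rows, so only the nuclear share was followed. Liver cells are rich in mitochondria, and their fuel use follows the daily cycle of feeding.

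Livers came from male mice of 12 to 16 weeks on a C57BL/6J background, either wild type (WT) or Cry1-/-Cry2-/- double knockout (CryDKO), which lack both cryptochromes, repressors at the core of the circadian clock. All of them were held in constant darkness and were injected into the peritoneum on 3 days with oxaliplatin (12 mg/kg), a platinum compound that damages DNA, at circadian time 8 (CT8) or 16 (CT16). The 4 groups, WT_CT8, WT_CT16, CryDKO_CT8 and CryDKO_CT16, hold 4 libraries each. No untreated group was analysed here, the labels do not say when livers were taken, and the series text speaks in another place of 1 dose. Dosing time and circadian phase at collection therefore cannot be told apart. No label states that each library is a different animal, so the p-values reflect sample spread only, which may be technical. In whole liver, fewer cells of a type and less RNA per cell cannot be told apart either.

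Libraries held 18083916 to 29934138 counted reads and are named by group and by the running number of their column. Values are CPM, the reads of a gene relative to all reads of its library, scaled between libraries with TMM factors, which use a trimmed mean of the gene ratios. Under the CryDKO label Cry2 measured 23.1 to 33.3 CPM, below the 39.9 to 58.9 CPM of WT, but Cry1 was higher there (20.5 to 29.0 against 5.14 to 15.9 CPM), so each genotype direction rests on the labels. Hepatocyte markers (6 genes) summed to 45380 to 57441 CPM in WT_CT8, 50713 to 87868 in WT_CT16, 98496 to 132426 in CryDKO_CT8 and 97650.0 to 152532 in CryDKO_CT16. The 10 markers of striated muscle, which has its own isoforms of several subunits, were nearly absent, at 0 to 0.252 CPM in sum, with Ckm, Myh4 and Myh7 at 0 in every group. A pair of libraries stood apart. WT_CT16 library 8 lay nearer to the WT_CT8 mean than to the mean of the other WT_CT16 libraries in 63 of the 82 subunit genes, and CryDKO_CT16 library 14 held the highest value of all 16 libraries in 30 of them. Results that rest on either are given with and without it below.

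**Figure D1:**
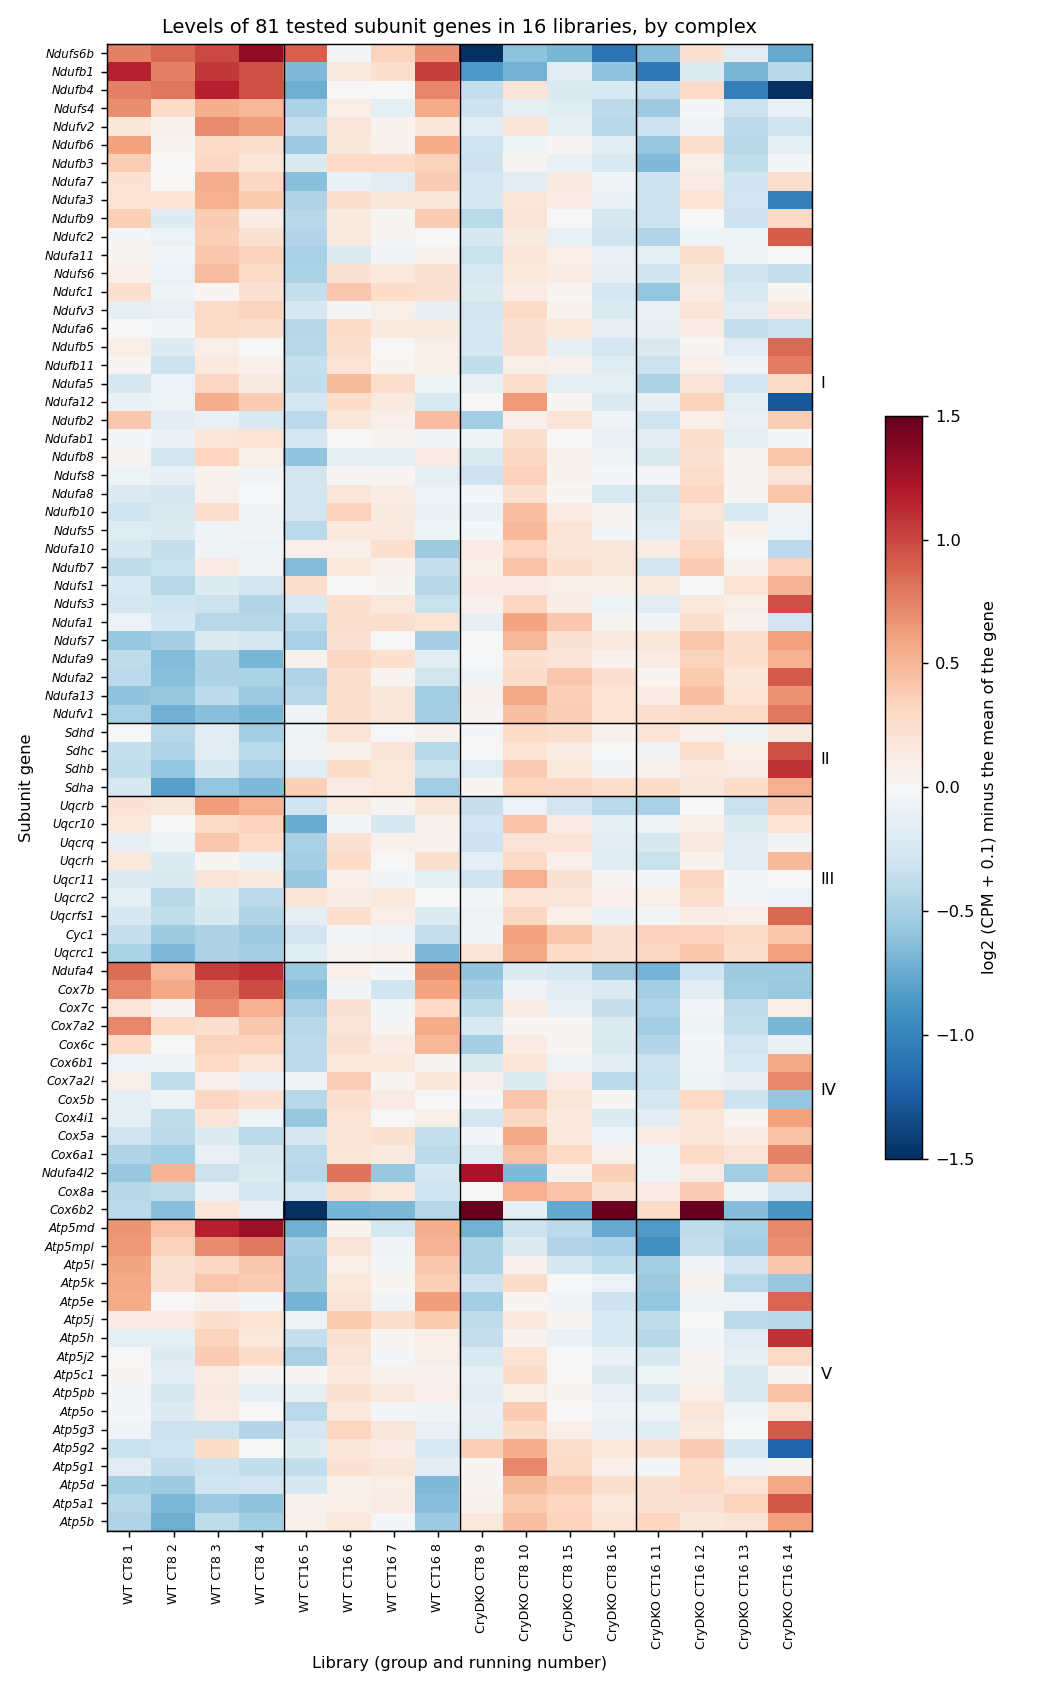
Levels of 81 of the 82 tested subunit genes (rows, by complex and, within a complex, by their change by genotype at CT8) in the 16 libraries (columns, by group), as log2 (CPM + 0.1) minus the mean of the gene over all libraries, with colours ending at 1.5 in either direction. Library 8 of WT_CT16 lies nearer the WT_CT8 mean than that of the rest of its group in 63 of all 82 genes, and library 14 of CryDKO_CT16 holds the highest value in 30.

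Promoter sequences show where subunit genes that moved in opposite directions start. Of the 91 genes, 71 were found in a table of RefSeq promoters (build GRCm38.p6), each window spanning 250 bases before to 50 after a start, and the other 20 were not listed. The 4 windows printed belong to the pair of listed genes with the lowest p values among those that rose, and the pair among those that fell, with CryDKO at CT8. They are written 5′ to 3′ along the strand of the gene, with matches to the searched motifs in capitals. Ndufv1 (chr19:4012706-4013005, minus strand), the FMN and NADH binding subunit of complex I, holds an E-box, the element bound by CLOCK and BMAL1. Uqcrc1 (chr9:108936398-108936697, plus strand), a core protein of complex III, holds NRF1 motifs. Ndufa4 (chr6:11907401-11907700, minus strand) and Ndufb1 (chr12:101975689-101975988, minus strand) hold none of the motifs searched.
Ndufv1: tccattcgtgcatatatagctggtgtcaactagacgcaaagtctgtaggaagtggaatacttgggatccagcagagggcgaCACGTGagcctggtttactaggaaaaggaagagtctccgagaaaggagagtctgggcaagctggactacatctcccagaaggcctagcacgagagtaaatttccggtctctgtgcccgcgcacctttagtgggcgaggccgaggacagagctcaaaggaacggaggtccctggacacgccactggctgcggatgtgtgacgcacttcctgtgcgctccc
Uqcrc1: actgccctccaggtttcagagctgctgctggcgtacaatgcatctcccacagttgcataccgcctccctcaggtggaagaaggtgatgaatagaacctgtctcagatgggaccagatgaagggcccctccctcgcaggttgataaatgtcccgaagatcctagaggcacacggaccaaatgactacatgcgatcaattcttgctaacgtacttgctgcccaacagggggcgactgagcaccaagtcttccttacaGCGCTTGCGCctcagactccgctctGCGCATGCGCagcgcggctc
Ndufa4: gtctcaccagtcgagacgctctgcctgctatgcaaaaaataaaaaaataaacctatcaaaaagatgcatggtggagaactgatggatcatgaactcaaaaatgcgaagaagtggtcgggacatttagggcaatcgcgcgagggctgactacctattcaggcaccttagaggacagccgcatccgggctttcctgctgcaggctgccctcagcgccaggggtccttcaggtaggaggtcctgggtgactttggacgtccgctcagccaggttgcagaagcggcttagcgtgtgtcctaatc
Ndufb1: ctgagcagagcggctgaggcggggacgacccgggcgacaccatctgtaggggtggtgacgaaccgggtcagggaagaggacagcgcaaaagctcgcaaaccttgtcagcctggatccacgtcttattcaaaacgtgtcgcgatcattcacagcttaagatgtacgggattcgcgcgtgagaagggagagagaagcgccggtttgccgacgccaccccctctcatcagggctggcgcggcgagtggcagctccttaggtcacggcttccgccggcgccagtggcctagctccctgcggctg
The motifs, read on both strands, were GCGCA and GCGC with any base between them for NRF1, CCGGAAG for GABPA, AAGATGG for YY1, AAGGTCA for ESRRA and CACGTG for the E-box. NRF1, GABPA, YY1 and ESRRA are factors known for driving genes of oxidative phosphorylation. The NRF1 motif was present in 23.7% of the 76 windows of subunit genes, against 4.60% of all 32851 windows in the table. For GABPA the shares were 22.4% and 8.86%, for YY1 14.5% and 6.34%, for ESRRA 10.5% and 4.72%, and for the E-box 9.21% and 7.15%. At least 1 motif was found in 9 of the 14 listed genes that rose by genotype at CT8, in 5 of the 10 that fell and in 29 of the 43 that did not pass, so the contrast among the printed windows is not one between the groups of genes. A match is a run of letters, not a measured binding site.

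Compared per length of transcript, as RPKM, which divides CPM by transcript length, averaged over the 16 libraries, the tested subunit genes spanned 1.18 to 983 RPKM with a median of 153. The highest was Uqcrq, a small subunit of complex III, at 983 RPKM, followed by Cox4i1 (724) and Cox6a1 (602), which sit on the core of complex IV. Ndufa4 (549), the catalytic beta subunit gene Atp5b (545) and Atp5g3 (537), 1 of 3 genes for the same c ring protein, came next. In complex I the range was 1.18 for Ndufs6b to 279 for Ndufb9, and in complex II it was 66.0 for Sdhc to 187 for Sdhb. Isoform families were split sharply in favour of the common form. Cox4i1 stood at 724 RPKM and Cox4i2, known from lung, at 0.200. Cox6a1 stood at 602 and Cox6a2, the form of heart and muscle, at 0.00801 with 2 reads. Cox7a2 stood at 179, its relative Cox7a2l at 84.7, and the muscle form Cox7a1 at 0.0853. Cox8a stood at 362 and Cox8b at 0.0733. Cox6b1 stood at 266 and the testis form Cox6b2 at 4.45, and Cox7b2 and Cox8c had 0 reads. In 16 libraries of this depth, 0 reads allow up to 3 reads in all, for counting error only.

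The first comparison asked how subunit genes differed between the libraries labelled CryDKO and WT after dosing at CT8. They split in both directions. At CT8, 20 of the 82 were higher and 13 were lower in CryDKO, at an adjusted p under 0.05 (edgeR quasi-likelihood test, Benjamini-Hochberg adjustment over all 14484 genes). The same test called 39.0% of all genes, 18.7% higher and 20.3% lower, so the 33 calls among subunits lie at the background. The median log2 change of the 82 was -0.01 and that of all genes -0.02. By complex, 8 rose and 5 fell of 38 in complex I, 2 and 0 of 4 in complex II, 3 and 1 of 9 in complex III, 3 and 4 of 14 in complex IV, and 4 and 3 of 17 in complex V. Values of the groups did not overlap in 35 of the 82 genes, 23 higher and 12 lower, against 39.2% of all genes. The directions depend on the scaling: by library size alone 9 subunits were higher and 33 lower, while the median of all genes moved to -0.36. The counts of all genes in that fit are not given here, so this split is no result about subunits alone.

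**Figure D2:**
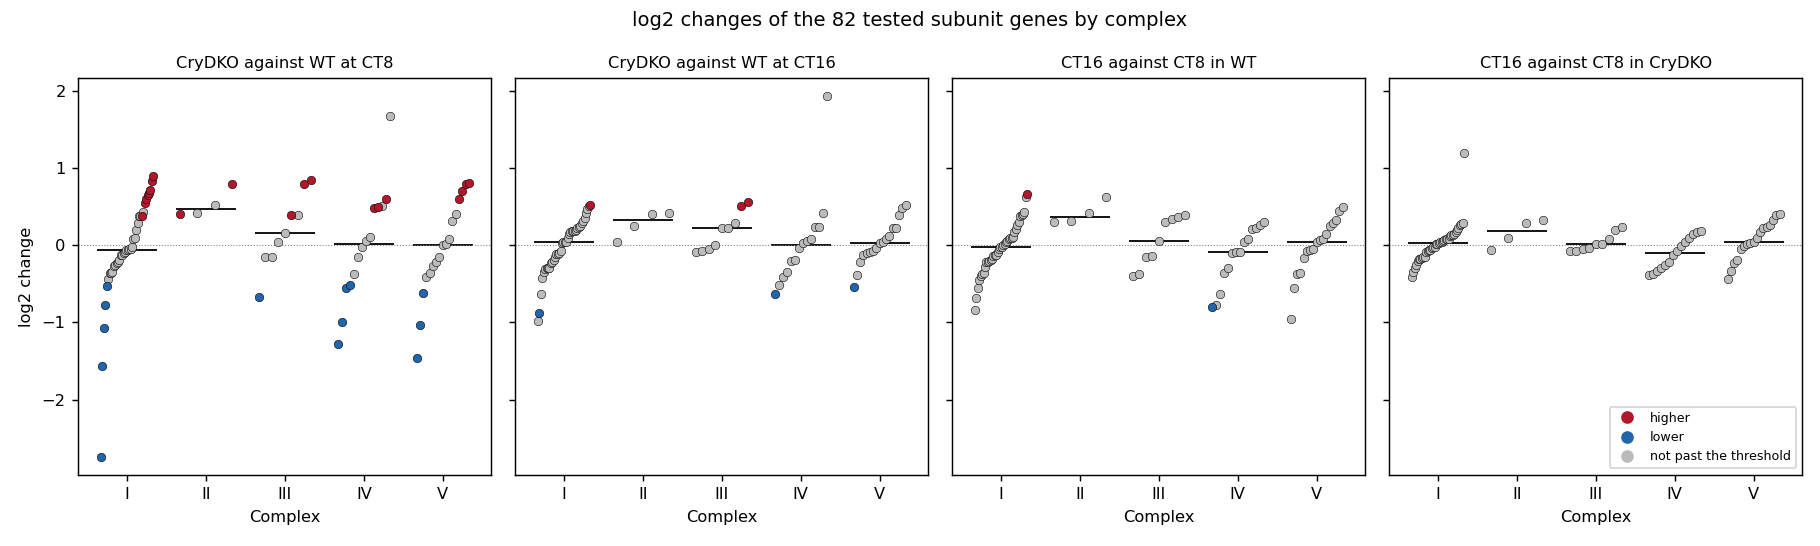
log2 changes (vertical axis) of the 82 tested subunit genes by complex (horizontal axis) in 4 comparisons, each point a gene, with red and blue for genes past an adjusted p of 0.05 and bars at the median of a complex. By genotype at CT8 20 genes were higher and 13 lower, at CT16 3 and 3, between times in WT 1 and 1, and between times in CryDKO none passed.

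In complex I the calls at CT8 went both ways. Of the 7 core subunit genes of complex I, 4 rose, Ndufv1, Ndufs1 and Ndufs7 among them, and 1 fell (Ndufv2). Of the other 31 tested genes of the complex, 4 rose and 4 fell. Among all genes 18.7% were called higher and 20.3% lower, and no difference between these parts was tested. Ndufv1 was at 126, 107, 114 and 109.7 CPM in WT_CT8 and at 181, 241, 229 and 204 CPM in CryDKO_CT8, with no overlap. Its log2 change was 0.90 ± 0.17 (SE), adjusted p = 0.000632. Ndufs7, which carries an iron-sulfur cluster near the quinone site, changed by 0.60 ± 0.17. Ndufs1, the largest subunit, was at 67.6 to 78.6 CPM in WT_CT8 and 96.2 to 98.9 in CryDKO_CT8, a change of 0.39 ± 0.14, and its call ended in 6 of the 16 fits with 1 library left out, without WT_CT8 library 2 or 4 or any of the 4 CryDKO_CT8 libraries, and by library size alone. Ndufs3 (0.44 ± 0.20, adjusted p = 0.0808) and Ndufs8 (0.09 ± 0.14, adjusted p = 0.645) did not pass. Ndufv2, the partner of Ndufv1 in the NADH module, went the other way by -0.53 ± 0.17, from 117 to 185 to 84.6 to 129.6 CPM with overlap, and its call ended without WT_CT8 library 3 or 4 or CryDKO_CT8 library 9 or 16.

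Among the other subunits of complex I, Ndufa13 (0.84 ± 0.18), Ndufa2 (0.71 ± 0.18), Ndufa9 (0.68 ± 0.14) and Ndufa1 (0.55 ± 0.17) rose. Ndufa9, which lies near the quinone site, was at 62.0, 51.5, 58.6 and 50.2 CPM in WT_CT8 and 81.6, 96.9, 92.9 and 84.6 CPM in CryDKO_CT8, with no overlap. Ndufs4, a subunit needed for a stable NADH module, fell from 96.0, 71.8, 86.7 and 83.6 to 47.6, 53.4, 52.1 and 45.1 CPM. The 4 values of each group did not overlap, and the log2 change was -0.77 ± 0.18, adjusted p = 0.00233. Ndufb1, a small subunit of the membrane arm, is the row of that symbol in the counts, and its transcript length and GC content come from the GENCODE gene named Ndufb1-ps. It was at 22.1, 16.7, 20.6 and 19.4 CPM in WT_CT8 and 5.36, 5.98, 8.80 and 6.44 CPM in CryDKO_CT8. That fall of 1.57 on the log2 scale was past the threshold at adjusted p = 0.000375. Ndufb4, another subunit of the membrane arm, fell by 1.07 on the log2 scale, a call that ended in 7 of 16 fits with 1 library left out. Ndufs6b, a copy of Ndufs6 with 167 reads in all, had a log2 change of -2.74 ± 0.56, at 0.625 to 0.976 against 0 to 0.180 CPM. It passed the filter on low counts through the WT libraries, where it was higher. Its call, which is among the 13 lower, is therefore no evidence of a fall. With a filter at a mean of 50 reads it was not in the fit. Ndufb8 (-0.01 ± 0.17) and Ndufab1 (-0.04 ± 0.13), the acyl carrier protein of the complex, did not pass.

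In complex II, the succinate dehydrogenase, all 4 genes had positive estimates and 2 passed, when 39.0% of all genes did. Sdha, the flavoprotein that oxidises succinate, was at 324, 217, 255 and 242 CPM in WT_CT8 and 386, 477, 474 and 458 CPM in CryDKO_CT8, with no overlap. The log2 change was 0.79 ± 0.18, adjusted p = 0.00242. The membrane anchor gene Sdhd changed by 0.41 ± 0.14 (adjusted p = 0.0288), a call that ended without WT_CT8 library 2 or 4 or CryDKO_CT8 library 10 or 15. The iron-sulfur subunit gene Sdhb (0.52 ± 0.21, adjusted p = 0.0555) and the other anchor gene Sdhc (0.42 ± 0.19, adjusted p = 0.0843) did not pass, although neither overlapped between the groups. Summed over the complex, the level was 822, 636, 770.1 and 667 CPM in WT_CT8 and 949, 1197, 1138 and 1049.9 CPM in CryDKO_CT8. All 4 CryDKO_CT8 sums were above all 4 of WT_CT8 on this TMM scale, while by plain share of reads the groups overlapped (0.0775% to 0.102% against 0.0955% to 0.113%).

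In complex III, Cyc1, Uqcrc1 and Uqcrc2 rose and Uqcrb fell. Cyc1 (chr15:76343523-76346260, build GRCm38) encodes cytochrome c1, which passes electrons to cytochrome c. Its levels were 156, 137, 144 and 136 CPM in WT_CT8 and 193, 302, 265 and 232 CPM in CryDKO_CT8, a log2 change of 0.79 ± 0.15 with adjusted p = 0.000479. Uqcrc1, whose promoter with NRF1 motifs is printed above, was at 193, 169, 195 and 190.4 CPM in WT_CT8 and 307, 398, 329 and 312 CPM in CryDKO_CT8 (0.85 ± 0.16, adjusted p = 0.000677). In both genes every CryDKO_CT8 value lay above every WT_CT8 value. Its partner core protein gene Uqcrc2 changed by 0.39 ± 0.13, and the Rieske iron-sulfur protein gene Uqcrfs1 by 0.40 ± 0.18, which did not pass (adjusted p = 0.0871). The small subunit gene Uqcrb fell by 0.67 on the log2 scale, from 136 to 185 to 91.0 to 113 CPM. Of the 50-base words of the Uqcrb transcript, 43.2% also occur in other genes, so its count is uncertain.

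In complex IV, Cox8a (0.60 ± 0.17), Cox6a1 (0.50 ± 0.20) and Cox5a (0.49 ± 0.17) rose. Ndufa4, Cox7b, Cox7c (-0.55 ± 0.19) and Cox7a2 (-0.52 ± 0.18) fell. Ndufa4, once assigned to complex I and now to complex IV, had the lowest p of all subunits. It was at 545, 431, 626 and 649 CPM in WT_CT8 and at 202, 264, 255 and 209 CPM in CryDKO_CT8. The groups did not overlap, with a log2 change of -1.28 ± 0.21 and adjusted p = 0.000213. Cox7b, a small subunit encoded on the X chromosome, was at 249.6, 225, 263 and 298 CPM in WT_CT8 and 107, 146, 136 and 132 CPM in CryDKO_CT8 (-0.99 ± 0.20, adjusted p = 0.000947), again with no overlap. Cox4i1 (0.10 ± 0.20) and Cox5b (0.06 ± 0.19) did not pass. The rise of Cox6a1 ended in 9 of the 16 fits with 1 library left out.

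In complex V, 3 of the 5 genes of the F1 head, where ATP is made, rose, when 18.7% of all genes were called higher and 20.3% lower. No difference between the parts of the complex was tested. Atp5b was at 735, 608, 774 and 704 CPM in WT_CT8 and 1122, 1379, 1273 and 1166 CPM in CryDKO_CT8 (0.81 ± 0.18, adjusted p = 0.00165). Atp5a1, for the alpha subunit, was at 664, 561, 616 and 590.0 and 926, 1175, 1116 and 996 CPM (0.79 ± 0.20, adjusted p = 0.00402). Neither overlapped between the groups. Of the central stalk genes, Atp5d, for the delta subunit, rose by 0.70 ± 0.17, while Atp5c1 (0.00 ± 0.14) and Atp5e (-0.36 ± 0.28) did not pass. Of the 3 c ring genes, Atp5g1 rose (0.61 ± 0.17) and Atp5g2 (0.41 ± 0.24) and Atp5g3 (0.31 ± 0.21) did not pass. The fallers were small membrane subunits. Atp5md was at 159.9, 136, 226 and 248 CPM in WT_CT8 and 61.5, 81.6, 76.9 and 59.8 CPM in CryDKO_CT8, with no overlap (-1.46 ± 0.32, adjusted p = 0.00261). Atp5mpl (-1.03 ± 0.27) and Atp5l (-0.62 ± 0.20) fell as well.

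**Figure D3:**
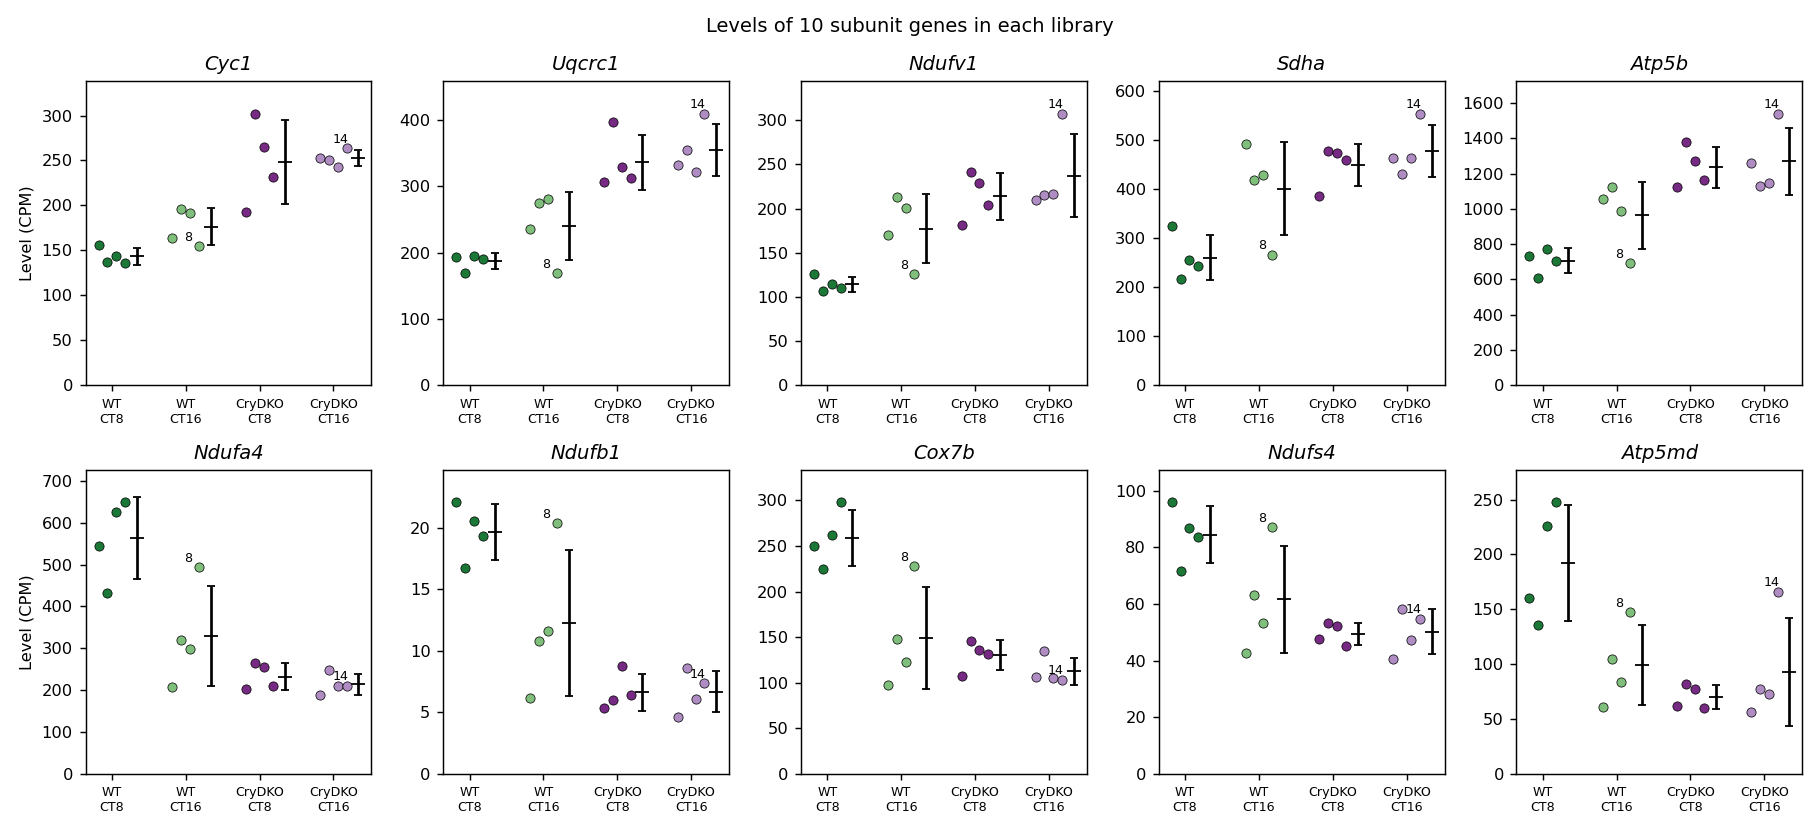
CPM (vertical axes, starting at 0) of 10 subunit genes in each library by group, with the mean and SD of a group beside its 4 points and the numbers of libraries 8 and 14 printed. In the top row CryDKO_CT8 lies above WT_CT8 and in the bottom row below it, without overlap, and in the Sdha panel library 8 (266 CPM) lies within the WT_CT8 range of 217 to 324 CPM.

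Of the 33 calls at CT8, those of Ndufv1, Ndufa13, Ndufa9, Ndufs4, Ndufb1, Sdha, Cyc1, Uqcrc1, Ndufa4, Atp5b, Atp5a1 and Atp5d held in all 16 fits that left out 1 library and in all 11 other settings tried. By library size alone 11 calls ended, all of genes that rose, such as Uqcrc2, Sdhd, Ndufa2, Ndufs7, Cox5a, Cox6a1, Cox8a and Atp5g1. Malat1, a nuclear RNA used here as a sign of RNA quality, was lower at CT8 in CryDKO by 1.15 on the log2 scale. Neat1, the other RNA used so, did not pass (0.04), at 294 to 442 CPM in WT_CT8 and 110 to 734 CPM in CryDKO_CT8. The collagen genes Col1a1 (1.62 ± 0.35) and Col1a2 (1.42 ± 0.24) of stellate cells rose, with 4 of 7 stellate markers higher, and so did 4 of 6 hepatocyte markers, such as Alb (1.21 ± 0.23). Stellate markers (7 genes) summed to 98.8 to 139 CPM in WT_CT8 and 125 to 243 CPM in CryDKO_CT8. The part of these differences in the subunit changes was not tested. Counts are uncertain where a transcript shares sequence with copies. The share of 50-base words was highest for Atp5l (68.5%) and Cox7c (53.0%) among the called genes. It was lower for Atp5md (40.6%), Ndufb4 (37.0%), Ndufs6b (25.4%), Cox6a1 (12.3%) and Atp5g1 (10.8%). The calls of Atp5l and Cox7c also ended in 3 and 5 of the 16 fits with 1 library left out. Both ended as well with the trend on GC content, on length or on both removed. They are also uncertain where an antisense gene overlaps, since the strand setting was not given, as for Ndufb1 (Cpsf2), Atp5md (Taf5), Ndufa13 (Tssk6), Atp5a1 (Haus1) and Atp5j (Gabpa).

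The same genotype comparison after dosing at CT16 gave fewer calls. At CT16, 3 subunits were higher and 3 lower of 82, against 18.2% of all genes called with the same edgeR quasi-likelihood test and adjustment, 1303 higher and 1326 lower. The median log2 change of the subunits was 0.04 and that of all genes -0.01. Values did not overlap in 5 genes, all higher, against 19.8% of all genes. Cyc1 was at 164, 196, 191 and 154 CPM in WT_CT16 and 253, 250.2, 242 and 264 CPM in CryDKO_CT16 (0.52 ± 0.15, adjusted p = 0.0189). Uqcrc1 was at 236, 275, 281 and 169 and 332, 356, 322 and 409.9 CPM (0.56 ± 0.16, adjusted p = 0.0215). Both genes of complex III were apart without overlap, as at CT8. Ndufs7 changed by 0.53 ± 0.17 (adjusted p = 0.0369).

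The 3 genes that fell at CT16 were Ndufb1, Ndufa4 and Atp5j. Ndufb1 was at 6.19, 10.8, 11.6 and 20.4 CPM in WT_CT16 and 4.64, 8.62, 6.11 and 7.38 CPM in CryDKO_CT16 (-0.87 ± 0.27, adjusted p = 0.0329). Ndufa4 was at 208, 319.9, 299 and 494 and 187, 247, 210.5 and 210.2 CPM (-0.63 ± 0.21, adjusted p = 0.0440). In both, the lowest WT_CT16 library lay within the CryDKO_CT16 values. Atp5j, which encodes a subunit of the ATP synthase stalk, changed by -0.54 ± 0.15, adjusted p = 0.0191, with 136 to 189 against 108 to 143 CPM. At CT8 it had not passed (-0.26 ± 0.15). The 6 calls leaned on single libraries. Of them 1, Atp5j, was left without WT_CT16 library 8 (12.9% of all genes called then), and 2 were left without CryDKO_CT16 library 13. Without CryDKO_CT16 library 14 (15.3% of all genes) 2 were left, Cyc1 and Atp5j, and Atp5mpl was called lower as well. With only the 2 groups of the comparison in the edgeR fit 0 subunits passed, and DESeq2 called 10. The shares of all genes called in these fits are not given here. Hepatocyte markers were higher in 2 of 6 genes at CT16 and macrophage markers in 4 of 8, and their part in these values was not tested.

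Of the 82 subunits 5 (6.10%) passed at both times in the same direction (Cyc1, Uqcrc1, Ndufs7, Ndufb1 and Ndufa4), below the 12.7% of all genes that did. Of the genes called at CT8, these were 15.2% of the 33 subunits and 32.6% of all 5649 genes. The signs of the change were the same at both times in 63 of 82 subunits, against 77.33% of all genes. The remaining genes followed throughout did not pass at CT16. In complex I they were Ndufv1 (0.42 ± 0.17), Ndufs1 (0.25 ± 0.14), Ndufa9 (0.19 ± 0.13), Ndufb8 (0.29 ± 0.17) and Ndufab1 (0.05 ± 0.13). In complex II, Sdha (0.25 ± 0.18), Sdhb (0.42 ± 0.21), Sdhc (0.41 ± 0.19) and Sdhd (0.04 ± 0.14) did not pass. The same held for Uqcrc2 (-0.05 ± 0.13) and Uqcrfs1 (0.29 ± 0.18), and for Cox4i1 (0.24 ± 0.20), Cox5a (0.24 ± 0.17) and Cox5b (-0.19 ± 0.19). Atp5b (0.40 ± 0.18, adjusted p = 0.118) and Atp5a1 (0.52 ± 0.20, adjusted p = 0.0700) did not overlap between the groups and did not pass.

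The comparison of dosing times within WT asked whether subunit levels differed between CT16 and CT8. In WT, 1 subunit was higher at CT16 and 1 was lower, against 2.53% of all genes in the edgeR quasi-likelihood test. Values of the groups did not overlap in 3 genes that were higher and 1 that was lower at CT16, against 12.6% of all genes. Ndufa9 rose from 62.0, 51.5, 58.6 and 50.2 CPM at CT8 to 84.6, 100.3, 96.2 and 72.6 CPM at CT16, with no overlap (0.67 ± 0.14, adjusted p = 0.0275). Cox7b was at 249.6, 225, 263 and 298 CPM at CT8 and at 97.8, 148, 123 and 228 CPM at CT16 (-0.80 ± 0.20, adjusted p = 0.0441), and library 8, with the highest value at CT16, overlapped the CT8 range. The call for Ndufa9 ended in 5 fits, without WT_CT8 library 2 or 4 or WT_CT16 library 5, 6 or 7. That for Cox7b ended in 8, without any of the 4 WT_CT8 libraries, WT_CT16 library 5, 6 or 7 or CryDKO_CT16 library 13. By library size alone Ndufa9 did not pass, and 0 subunits were higher and 2 lower, when 18 of all genes were higher and 354 lower. With only the groups compared in the fit Cox7b did not pass. Malat1 fell between the times as well, by 1.21 on the log2 scale, from 595 to 772 CPM in WT_CT8 to 147 to 456 CPM in WT_CT16, without overlap. Neat1 did not pass (-0.48), at 294 to 442 CPM in WT_CT8 and 126 to 555 CPM in WT_CT16. Of 6 hepatocyte markers 1 rose, Cps1 (1.00 ± 0.27), and all 6 markers of sinusoidal endothelium had negative estimates, 3 with an unadjusted p under 0.05 and 0 called by edgeR. Their part in the subunit values was not tested. The median over the 82 subunits was 0.01, against -0.04 for all genes.

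With library 8 left out, 15 subunits passed in WT, 10 of them higher at CT16 and 5 lower, when 24.4% of all genes did. Those higher included Ndufa9 (0.79), Ndufv1 (0.81), Ndufs1 (0.41), Ndufa13 (0.60), Sdha (0.82), Uqcrc1 (0.54), Uqcrc2 (0.47), Atp5a1 (0.69) and Atp5b (0.62), and those lower were Cox7b (-1.03), Ndufa4 (-0.99), Ndufs4 (-0.63) and Atp5md (-1.16), each a log2 change, and Ndufb1. With library 8 in the fit, Ndufv1 (0.63 ± 0.17, adjusted p = 0.0514), Sdha (0.63 ± 0.18, adjusted p = 0.0587) and Ndufa4 (-0.77 ± 0.21, adjusted p = 0.0516) did not pass. Library 8 was singled out from these same values, as lying nearer to WT_CT8. Leaving it out therefore tends to widen this contrast, and the added calls are no separate evidence. Levels of Sdha in WT_CT16 were 491, 418, 428 and 266 CPM and those of Ndufa4 208, 319.9, 299 and 494 CPM, the last of each from library 8. The summed level of complex II in WT_CT16 was 1041, 1084, 1068 and 769 CPM, where library 8 again lay within the WT_CT8 sums. The TMM factor of library 8 was 1.20, within the WT_CT8 range of 1.13 to 1.24, and those of the other WT_CT16 libraries were 0.921 to 0.955.

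The other genes followed throughout did not pass between the times in WT. They were Ndufs1 (0.26 ± 0.14), Ndufb8 (-0.22 ± 0.17) and Ndufab1 (-0.13 ± 0.13) of complex I, and Sdhb (0.42 ± 0.21), Sdhc (0.30 ± 0.19) and Sdhd (0.31 ± 0.14) of complex II. Cyc1 (0.30 ± 0.15), Uqcrc1 (0.36 ± 0.16), Uqcrc2 (0.39 ± 0.13) and Uqcrfs1 (0.34 ± 0.18) of complex III did not pass, nor did Cox4i1 (0.04 ± 0.20), Cox5a (0.30 ± 0.17) and Cox5b (-0.09 ± 0.19) of complex IV. In complex V the values were 0.50 ± 0.20 for Atp5a1 and 0.45 ± 0.18 for Atp5b.

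In the libraries labelled CryDKO, 0 subunits differed between CT16 and CT8, and the same test called 0% of all genes. None of the 82 had an unadjusted p under 0.05 by edgeR, and DESeq2 and limma voom called 0 subunits each. Ndufs6b had the largest estimate (1.20 ± 0.63, adjusted p = 0.783). Cyc1 (0.02 ± 0.15), Uqcrc1 (0.08 ± 0.16), Sdha (0.09 ± 0.18), Ndufv1 (0.15 ± 0.17), Atp5b (0.04 ± 0.18), Ndufa4 (-0.12 ± 0.21), Ndufb1 (0.02 ± 0.28) and Cox7b (-0.21 ± 0.20) did not pass. Sdhb (0.32 ± 0.21) and Sdhc (0.28 ± 0.19) did not pass either, and library 14 held their highest values, 436 and 394 CPM, against 184 to 267 CPM in the other 7 libraries of Sdhb and 195 to 244 of Sdhc. Of the remaining genes followed throughout, Ndufs1 (0.12 ± 0.14), Ndufa9 (0.18 ± 0.13), Ndufb8 (0.09 ± 0.17), Ndufab1 (-0.04 ± 0.13) and Sdhd (-0.06 ± 0.14) did not pass. Nor did Uqcrc2 (-0.05 ± 0.13), Uqcrfs1 (0.23 ± 0.18), Cox4i1 (0.18 ± 0.20), Cox5a (0.05 ± 0.17), Cox5b (-0.33 ± 0.19) and Atp5a1 (0.23 ± 0.20).

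Whether the genotype difference itself depended on dosing time was tested as an interaction. By edgeR's quasi-likelihood test 0 of 82 subunits passed, against 0.0414% of all genes. An unadjusted p under 0.05 was found for 11 subunits, and DESeq2 and limma voom called 0. Without WT_CT16 library 8, Cox7b passed (log2 difference 0.82, adjusted p = 0.0488), when 3.86% of all genes did. The larger number of calls at CT8 than at CT16 is therefore not shown to be a difference between the times. The fit that called Cox7b left out a library picked from these same values, so that call is no separate evidence. For Ndufa9 the interaction was -0.49 ± 0.19 (adjusted p = 0.292), for Ndufv1 -0.48 ± 0.24, for Sdha -0.54 ± 0.26 and for Ndufa4 0.65 ± 0.30.

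**Figure D4:**
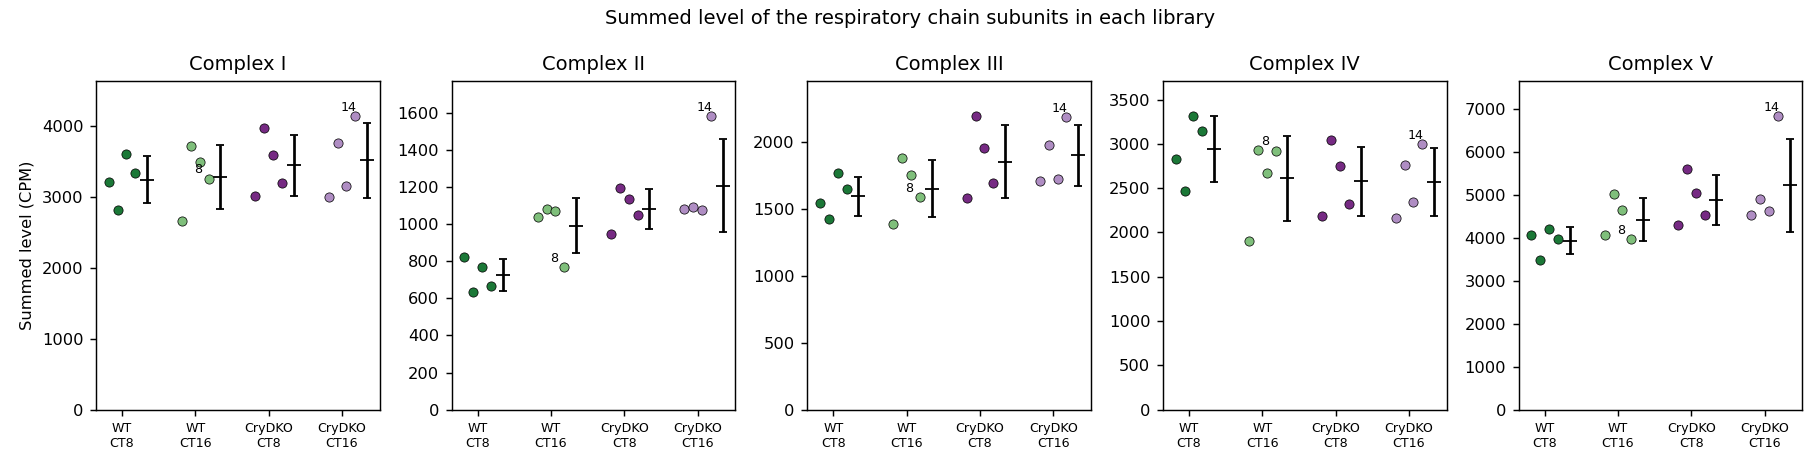
Summed CPM (vertical axes, starting at 0) of the subunit genes of each complex in each library, with the mean and SD of a group beside its 4 points and libraries 8 and 14 numbered. Complex II is lower in all 4 WT_CT8 libraries, at 636 to 822 CPM, than in all 8 CryDKO libraries, at 949 to 1581 CPM, on this TMM scale but not by plain share of reads, and library 14 is highest for complexes I, II and V.

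Summed TMM-scaled levels of complexes I, III and IV overlapped between all groups. Complex I summed to 3241 ± 328 CPM (SD, n = 4) in WT_CT8, 3278 ± 455 in WT_CT16, 3441 ± 425 in CryDKO_CT8 and 3510.1 ± 529 in CryDKO_CT16. Complex III summed to 1597 ± 145, 1654 ± 213, 1856 ± 275 and 1902 ± 227 CPM in the same order, and complex IV to 2939 ± 370.2, 2609.6 ± 483, 2577 ± 392 and 2568 ± 381. Complex V, to which Atp5a1 and Atp5b give the most reads, summed to 3935 ± 319, 4424 ± 503, 4872 ± 584 and 5221 ± 1083 CPM, and its 4 WT_CT8 sums lay below its 4 CryDKO_CT8 sums. By plain share of reads these separations turned: complex V overlapped at CT8 (0.424% to 0.504% in WT and 0.424% to 0.528% in CryDKO), and complex IV was lower in CryDKO_CT8 (0.221% to 0.287%) than in WT_CT8 (0.301% to 0.374%) without overlap. Complex II, at 724 ± 87.0, 990.5 ± 149, 1083 ± 108 and 1207 ± 249.7 CPM, had the widest relative range of group means. A sum follows its most abundant members, and rises and falls within a complex offset each other in it. All 91 genes together took 1.02% to 1.55% of the counted reads.

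Longer subunit transcripts rose more than shorter ones by genotype at CT8. Of the 18 with a transcript of at least 1400 bases, 11 rose and 2 fell, with a median log2 change of 0.51, against 2324 and 1896 of 11167 genes of that length with a median of 0.05. Of the 23 from 800 bases up to that length, 3 rose and 3 fell, against 300 and 287 of 1639 genes. Of the 41 under 800 bases 6 rose and 8 fell, with a median of -0.15, against 63 and 261 of 785 genes with a median of -0.42. The 8 include Ndufs6b (348 bases), whose call is no evidence of a fall, as given above. It also enters the correlations that follow. Across the 82 subunit genes the log2 change had a Pearson correlation of 0.412 with log2 length and 0.347 with GC content, against 0.0896 and 0.276 across 13591 genes. Genes are not independent replicates, and these are descriptions. Lengths and GC content came from 1 transcript a gene in GENCODE vM21 (build GRCm38), and the length limits were chosen after the values were seen. When trends on length were removed from each library, 34 subunits were higher and 8 lower at CT8, when 3128 and 2803 of all 14484 genes were. With trends on GC content and length removed 33 were higher and 5 lower, when 3273 and 2234 of all genes were. Ndufb1, Ndufa4 and Ndufs4 were still called lower then. The calls of 8 genes ended, all of them lower before: Cox7b, Atp5md, Atp5mpl, Atp5l, Cox7a2, Ndufv2, Cox7c and Uqcrb. Of these, Cox7c and Uqcrb changed sign. Transcript length is not the size of the protein, which was not measured. The part of transcript length in these changes cannot be told apart from the roles of the subunits.

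**Figure D5:**
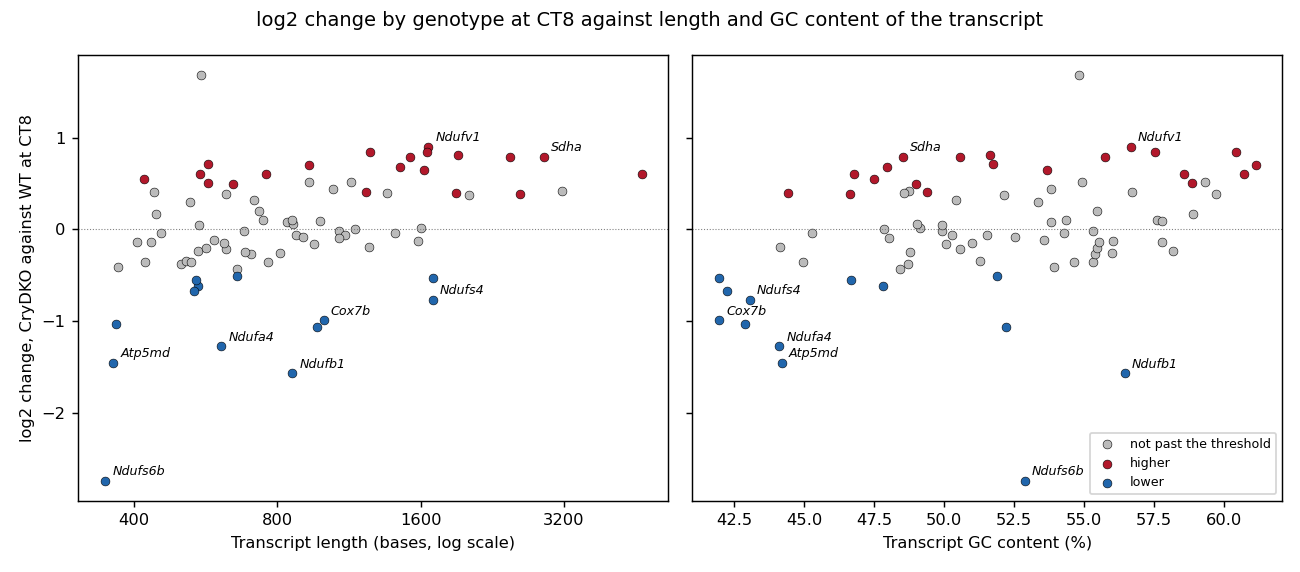
log2 change by genotype at CT8 (vertical axis) of the 82 tested subunit genes against transcript length (left, log scale) and GC content (right), each point a gene, red higher, blue lower. Of 18 transcripts of at least 1400 bases 11 rose and 2 fell. Of the genes that fell, Atp5md, Cox7b, Ndufa4 and Ndufs4 have a GC content of 42.0% to 44.2%, but Ndufb4 has 52.2% and Ndufb1 56.4%. Uqcrc2, which rose, has 44.4%.

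The genes around the chain were followed by lists. Of 14 tested genes of the citrate cycle, which feeds NADH and succinate to complexes I and II, 9 rose and 0 fell at CT8 by genotype (3 and 0 when scaled by library size alone), when 18.7% of all genes were called higher. Among them were Idh2 (1.05 ± 0.18), Mdh2 (0.84 ± 0.17), Ogdh (0.75 ± 0.17) and Cs (0.60 ± 0.14), the citrate synthase. The median over the list was 0.37, against -0.02 for all genes. At CT16, Cs (0.58 ± 0.14) alone rose. Without library 8, 8 citrate cycle genes rose between the times in WT, when 24.4% of all genes were called, and with it 0 did. The limit given above for leaving out library 8 holds here too. Of 16 genes of electron carriers and quinone donors, 5 rose at CT8 and 0 fell, such as Etfb (0.57 ± 0.17), which brings electrons from fatty acid oxidation, and Coq7 (0.59 ± 0.15), which makes ubiquinone, beside the same 18.7% of all genes, but 0 rose and 2 fell when scaled by library size alone. At CT16 0 of them rose and 1 fell, Coq3 (-0.42 ± 0.13). Of 16 genes of the mitochondrial membranes and protein import, 6 rose and 0 fell at CT8, again beside 18.7% of all genes. Among them were Hspa9 (0.91 ± 0.19) and the ADP and ATP carrier gene Slc25a5 (0.52 ± 0.16). By library size alone 1 rose and 3 fell at CT8, and at CT16 0 rose and 0 fell on the TMM scale. The shares of all genes beside these lists come from the TMM-scaled fit. By library size alone the median of all genes was lower, as given above.

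Of 46 tested assembly factors, 9 rose and 5 fell by genotype at CT8, when 39.0% of all genes were called, and 3 rose and 2 fell at CT16, when 18.2% were. By library size alone 1 rose and 20 fell at CT8. Ndufaf8, needed for complex I, rose at both (0.76 ± 0.16 and 0.57 ± 0.16), as did Sdhaf1, needed for the iron-sulfur clusters of complex II (0.38 ± 0.14 and 0.66 ± 0.14). Cox19, a copper chaperone for complex IV, fell at both (-0.82 ± 0.14 and -0.69 ± 0.14). Of 22 regulators of mitochondrial biogenesis, 2 rose and 5 fell at CT8, and 2 rose and 6 fell at CT16, beside the same shares of all genes. By library size alone 0 rose and 10 fell at CT8. For both lists the shares of all genes come from the TMM-scaled fit and not from the fit by library size alone. Gabpb1, the partner of GABPA, fell by 1.15 at CT8 and by 0.60 at CT16 on the log2 scale, and Mterf3 by 1.11 and 0.60. Ppargc1b, which encodes the coactivator PGC-1 beta, fell by 0.80 and 1.40. Polrmt, the mitochondrial RNA polymerase, rose by 0.39 ± 0.13 and 0.64 ± 0.13, and Esrra rose at CT8 (0.42 ± 0.16). Of 78 tested cytosolic ribosomal protein genes 14 rose and 10 fell at CT8, and of 78 mitochondrial ones 12 rose and 9 fell. The shares called there were of the same order as among the subunits, and no difference between these lists was tested.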

How the data were processed

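Mouse liver RNA was sequenced in 16 libraries, and whole-number read counts per gene symbol were deposited by the authors. Per the submitters' processing notes, FastQC, Trimmomatic 0.35, STAR 2.5.3, HTSeq 1.99.2 and DESeq2 were used with build GRCm39. Annotation and strand setting are not given in the sources used here. Columns were matched to groups by name. The members and lists were chosen with earlier results of these data known.

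Counts were filtered with filterByExpr, scaled by TMM and fitted over all 4 groups with edgeR 4.0.16 in R 4.3.3 (robust quasi-likelihood test, Benjamini-Hochberg adjustment over 14484 genes, threshold 0.05), with 5 contrasts. The test was tried on simulated data. Libraries of 18083916 to 29934138 reads set the precision. No 2 libraries of the same group matched within sampling noise, and pairs across groups were not compared. Some genes counted in the totals are not reported here by name. A fixed set of core subunits is named in each comparison, with up to 6 called genes a complex by lowest adjusted p. Alternatives were DESeq2 1.42.0, limma 3.58.1 voom, other scalings and filters, only the groups compared, each library left out and, chosen after seeing the data, trends on GC content and length removed (lowess span 0.3). Lengths came from GENCODE vM21 (GRCm38), a build other than that of the counts. Figures were drawn with matplotlib 3.10.9.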

Additional observations from a re-analysis of the deposited data

Results flagged for a closer look

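In 160 checks of 4 libraries each, 11 values lay far from the other 3 of their group, and chance alone gives about 1 in 20. CryDKO_CT16 library 14 gave 6 of them, each as the highest. These were the summed levels of complex II (1581 CPM) and complex V (6828 CPM), and Ndufv1 (308 CPM), Sdhb (436 CPM), Uqcrfs1 (415 CPM) and Atp5a1 (1712 CPM). WT_CT16 library 8 was lowest in its group for the summed level of complex II (769 CPM) and for Atp5a1 (575 CPM). CryDKO_CT16 library 12 was highest for Cox7b (135 CPM) and Atp5j (143 CPM), and CryDKO_CT8 library 10 stood apart for Atp5mpl (67.1 CPM).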

How the results depend on the processing

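By genotype at CT8 the number of subunits called was 23 to 37 with each library left out, lowest without WT_CT8 library 4. The median log2 change of the subunits there was -0.35 by library size alone, 0.28 with the length trend removed and 0.26 with GC and length trends removed. With both trends removed Cox7c (0.14) and Uqcrb (0.23) changed sign. At CT16 the count of 6 became 10 by DESeq2, 0 with only the groups compared, 3 with the GC trend removed (0 higher, 3 lower), 14 with the length trend removed (12 higher, 2 lower) and 1 to 9 with each library left out. By library size alone it was 1 higher and 5 lower. These counts at CT8 and CT16 stand without the share of all genes in each fit and are no result about subunits alone. Between times in WT the count of 2 became 8 by DESeq2, 5 by limma voom, 5 with no filter, 7 with the length trend removed, 9 with both trends removed and 0 to 15 with each library left out. Over all genes the count of 367 moved as well, to 1546 by DESeq2, 955 by limma voom and 663 of 25231 with no filter. It was 728 with the length trend removed, 1025 with both trends removed and 0 to 3580 with each library left out. The count of subunits was 0 without WT_CT8 library 2 or 4 or WT_CT16 library 5, 6 or 7, 1 without WT_CT8 library 1 or 3 or CryDKO_CT16 library 13, 4 without CryDKO_CT8 library 9, 6 without CryDKO_CT16 library 14 and 15 without WT_CT16 library 8. The median there was -0.23 by library size alone. The interaction gave 0 to 1 with each library left out. The cause of these shifts was not tested. Library size alone moved the median of all genes to -0.36 at CT8, -0.16 at CT16 and -0.29 between times in WT. No paired analysis was possible because the columns carry a running number and not the replicate numbers of the labels.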
